A study of Homo sapiens with 12 samples.

Results

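The genes examined here encode the nuclear subunits of the respiratory chain, followed in MDA-MB-231 cells after transfection with antisense oligonucleotides against mitochondrial tRNAs. Members were chosen by symbol alone: NDUFA, NDUFB, NDUFC, NDUFS or NDUFV with a number, NDUFAB1, names that begin with UQCR, CYC1, names that begin with COX4 to COX8, and names that begin with ATP5F1, ATP5M or ATP5P. Of 153 matching symbols, 70 were dropped because they end in P and a number, as processed pseudogenes do, or carry a hyphen. That left 83 of the 52859 genes in the table: 38 for complex I, 10 for complex III, 17 for complex IV and 18 for complex V. MDA-MB-231 is an established human breast cancer line of basal, mesenchymal type. Locked nucleic acids (LNA) are short modified oligonucleotides that bind complementary RNA. The 4 groups, each of 3 libraries, are mtAsn-1 and mtAsn-2, both aimed at the mitochondrial asparagine tRNA, mtLys, aimed at the mitochondrial lysine tRNA, and a control LNA. All groups alike received 20 nM of LNA with Lipofectamine 2000 and were harvested on day 2, so every comparison is between transfected cells. All libraries come from 1 cell line, and nothing in the labels tells whether replicates were separate cultures, so the p-values reflect spread between libraries that may be technical.

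The respiratory chain sits in the inner mitochondrial membrane. Complex I passes electrons from NADH to ubiquinone, complex III passes them on to cytochrome c, and complex IV reduces oxygen with them. The proton gradient built on the way drives complex V, the ATP synthase. Each of these complexes is a mosaic. A few of its proteins are translated inside mitochondria, with mitochondrial tRNAs, and the remaining subunits are encoded in the nucleus, made in the cytosol and imported. The genes described here are the nuclear side of that mosaic. A loss of mitochondrial translation is known to leave nuclear subunits without assembly partners.

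Total counts ran between 17978825 and 37708993 per library, and 16051 genes were tested in all. TRNN, the gene of the asparagine tRNA, held 1 to 6 reads per library, too few to check the labels, and TRNK, the gene of the lysine tRNA, held 111 to 325. Markers of the line were present in every library, with VIM at 2954 to 3879 CPM (counts scaled to library size with normalisation factors) and CD44 at 562 to 794 CPM. ESR1 reached 0.286 CPM, CDH1 0.523 CPM and the leukocyte marker PTPRC 0.343 CPM at most, while EPCAM (3.45 to 6.21 CPM) and ERBB2 (89.4 to 119.6 CPM) were above 0 throughout. So were CD14 (2.08 to 3.95 CPM), of monocytes, PECAM1 (9.90 to 18.1 CPM), of endothelium, and SPARC (3.25 to 6.39 CPM), a mesenchymal gene. CAV1, high in basal lines, reached 588 to 877 CPM, and PGR, CD3E, CDH5 and VWF at most 0.484 CPM.

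Of the 83 subunit genes, 73 had enough reads to be tested: 34 for complex I, 9 for complex III, 12 for complex IV and all 18 for complex V. Their median level was 76.0 CPM, against 17.6 CPM for all genes tested. Together the 83 genes took between 0.720% and 0.781% of a library's counts. The summed share of complex I was 0.224%, 0.222% and 0.217% in mtAsn-1 cells, 0.222%, 0.217% and 0.222% in mtAsn-2 cells, 0.216%, 0.217% and 0.220% in mtLys cells, against 0.205%, 0.214% and 0.212% in control cells. For complex V it was 0.287%, 0.287% and 0.290% in mtAsn-1 cells, 0.305%, 0.302% and 0.299% in mtAsn-2 cells, 0.283%, 0.285% and 0.294% in mtLys cells, against 0.277%, 0.298% and 0.289% in control cells. For complex I every library of a tRNA LNA was above every control library, and for complex V every mtAsn-2 library was, while mtAsn-1 and mtLys libraries lay within the control range. These shares are of raw totals, without the normalisation factors used for CPM. Those factors were 1.042 to 1.049 in mtAsn-2 libraries and 0.9898 to 0.9944 in control libraries. After scaling, the median fitted log2 fold change in mtAsn-2 cells was -0.017 for complex I and -0.0042 for complex V. For complex I it was 0.058 in mtAsn-1 cells and 0.028 in mtLys cells. The higher raw shares in mtAsn-2 cells are therefore not read as a rise. The differences were small, and no test was made on them. Bulk RNA cannot tell fewer cells of a kind from less RNA per cell. Within a group the median coefficient of variation of the tested members was 2.70% to 3.64%.

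**Figure D1:**
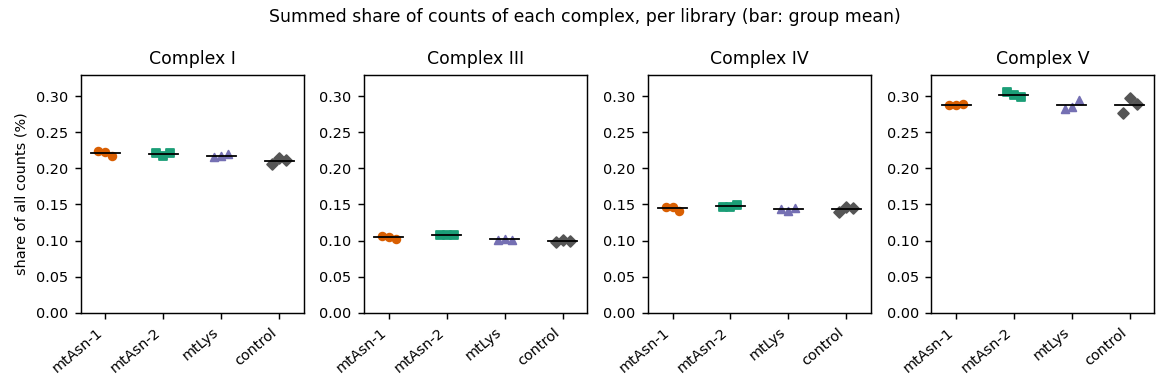
Summed share of all counts (%, vertical axis from 0) taken by the subunit genes of complexes I, III, IV and V in each of the 3 libraries per group (symbols), with the group mean as a bar. In each complex the 4 groups sit close to one another, for example at 0.287% to 0.290% of counts for complex V in mtAsn-1 cells, against 0.277% to 0.298% in control cells.

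Per kilobase of merged exon, the most abundant subunit genes in control cells were ATP5F1B, the catalytic beta subunit of ATP synthase, at 635 ± 25.4 RPKM, COX8A, a small complex IV subunit, at 490.1 ± 19.9 RPKM, and COX7C, another, at 398 ± 8.78 RPKM (SD, n = 3). The highest of complex I was NDUFS5 at 291 ± 9.04 RPKM and of complex III UQCRH, the hinge protein, at 234 ± 7.89 RPKM. COX6B1, at 235 ± 10.1 RPKM, and UQCRH did not differ beyond their spread. The next in complex III was CYC1, cytochrome c1, at 101 ± 2.40 RPKM, well below UQCRH.

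Of the 10 genes left untested, 4 encode regular parts of the complexes and were listed with almost no reads. NDUFS1, the largest core subunit of complex I, had 1 read over all 12 libraries, NDUFS3, another core subunit, had 1, NDUFA6 had 1 and UQCRC2, a core subunit of complex III, had 2. NDUFA3 had 29 reads, with 0 to 4 in a library. Each of these 5 genes is listed again on alternate scaffolds of the genome build, apart from the main chromosome sequences. NDUFS1, NDUFS3 and UQCRC2 are listed there 1 time each, NDUFA6 4 times and NDUFA3 9 times. Those copies of the entry held at most 2 reads per gene. NDUFA10 has 1 such copy too, with 0 reads, and kept 20246 reads of its own. What the near-zero counts reflect was not tested, and no level is given for these genes. The remaining 5 are tissue-restricted isoforms of complex IV. They are COX7A1 of heart and muscle (0 to 5 reads per library), COX4I2, COX6A2 of muscle, COX7B2, and COX8C. COX8C had 0 of 340517894 counts, which allows up to 0.00881 CPM (3 counts, counting error only). It too has 1 copy on an alternate scaffold, with 0 reads. The treatment of reads with several matches is not given. This limit therefore holds for counted reads and is not read as absence of expression.

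Against the control LNA, the subunit genes moved in both directions, and most of their changes were small. With mtAsn-1, 27 of the 73 tested members passed the threshold (Benjamini-Hochberg adjusted p under 0.05 over all 16051 genes), 20 higher and 7 lower, against 48.5% of all genes tested, 24.3% higher and 24.2% lower. With mtAsn-2, 31 passed, 15 higher and 16 lower, against 51.1% of all genes, 24.1% higher and 27.0% lower. With mtLys, 25 passed, 17 higher and 8 lower, against 48.5% of all genes, 24.6% higher and 23.9% lower. No member passed the threshold with a change of 2-fold or more. The members' median log2 fold change was 0.04 in mtAsn-1 cells, -0.01 in mtAsn-2 cells and 0.03 in mtLys cells, beside -0.0035, -0.0071 and -0.00054 for all genes tested. The median size of the change, without its sign, was 0.09, 0.10 and 0.09 for the members, beside 0.23, 0.24 and 0.22 for all genes, whose median level is lower. These medians rest on single libraries. Without control replicate 1 they were 0.0026 for mtAsn-1, -0.0448 for mtAsn-2 and 0.0026 for mtLys. That of mtLys was 0.0040 without mtLys replicate 3. The sign for mtAsn-2 is not settled: the median was 0.0060 without control replicate 2, 0.0145 with no filter on low counts and 0.0019 in a fit of only the groups compared. It was -0.0055 without mtAsn-2 replicate 2 and -0.0056 without mtLys replicate 2. These 3 comparisons use the same control libraries, so a control level that is off by chance moves all of them together.

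**Figure D2:**
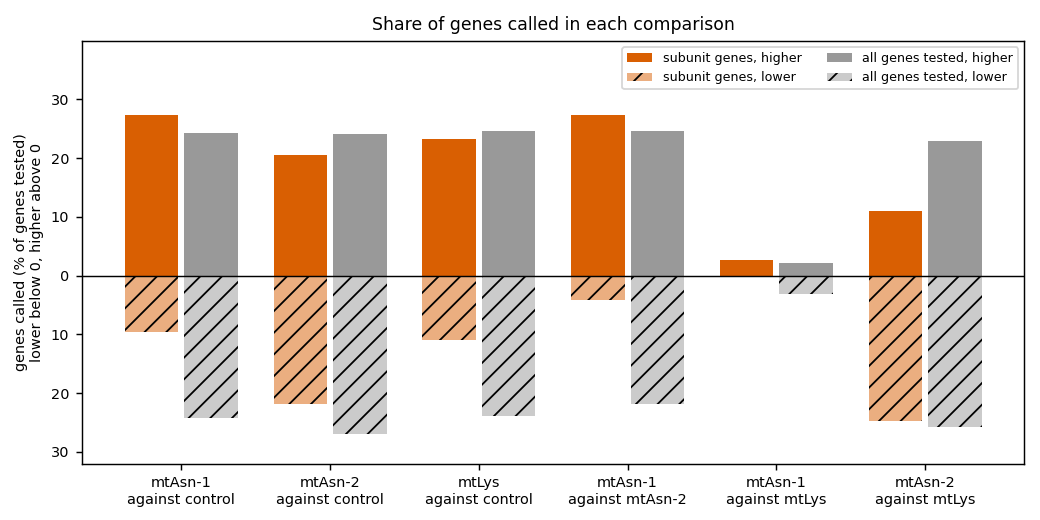
Share of genes past the threshold (% of genes tested, vertical axis), higher above 0 and lower below 0, for the subunit genes beside all genes tested in each of the 6 comparisons between groups. The subunit genes lie below the whole table in most columns, as in mtLys cells, where 34.2% of subunit genes and 48.5% of all genes passed, and mtAsn-1 against mtLys has few calls of either kind.

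By complex, complex I, with 34 of the 73 tested members, held most of the calls. Of its 34 tested genes, 11 were higher and 6 lower in mtAsn-1 cells, 9 and 10 in mtAsn-2 cells, and 10 and 4 in mtLys cells. Complex III (9 tested) had 2 higher and none lower in mtAsn-1 cells, 2 higher and 1 lower in mtAsn-2 cells, and 2 higher and none lower in mtLys cells. Complex IV (12 tested) had 2 higher and 1 lower in mtAsn-1 cells, 0 and 3 in mtAsn-2 cells, and 0 and 1 in mtLys cells. Complex V (18 tested) had 5 higher and 0 lower in mtAsn-1 cells, 4 and 2 in mtAsn-2 cells, and 5 and 3 in mtLys cells. As shares, 50%, 55.9% and 41.2% of complex I passed with mtAsn-1, mtAsn-2 and mtLys. Beside these, 48.5%, 51.1% and 48.5% of all genes tested passed. The median level of all genes is lower than that of the members. Under a stricter filter on low counts (1 CPM throughout a group, mean log2 CPM 2), 59.3%, 61.4% and 58.0% of 10884 genes passed. Complex I is therefore not read as standing above other genes. In the same order the share was 22.2%, 33.3% and 22.2% in complex III. It was 25%, 25% and 8.33% in complex IV, and 27.8%, 33.3% and 44.4% in complex V. Differences between complexes were not tested. Of the 73 tested members, 30 did not pass against the control LNA with any of the tRNA LNAs, 10 of complex I, 5 of complex III, 7 of complex IV and 8 of complex V. The matching share of all genes tested was not computed, so the 30 describe the list and set it apart from no other genes. Some of the 30 passed in other settings, such as NDUFC2 in mtAsn-1 cells with no filter on low counts (-0.41, adjusted p = 0.0145).

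**Figure D3:**
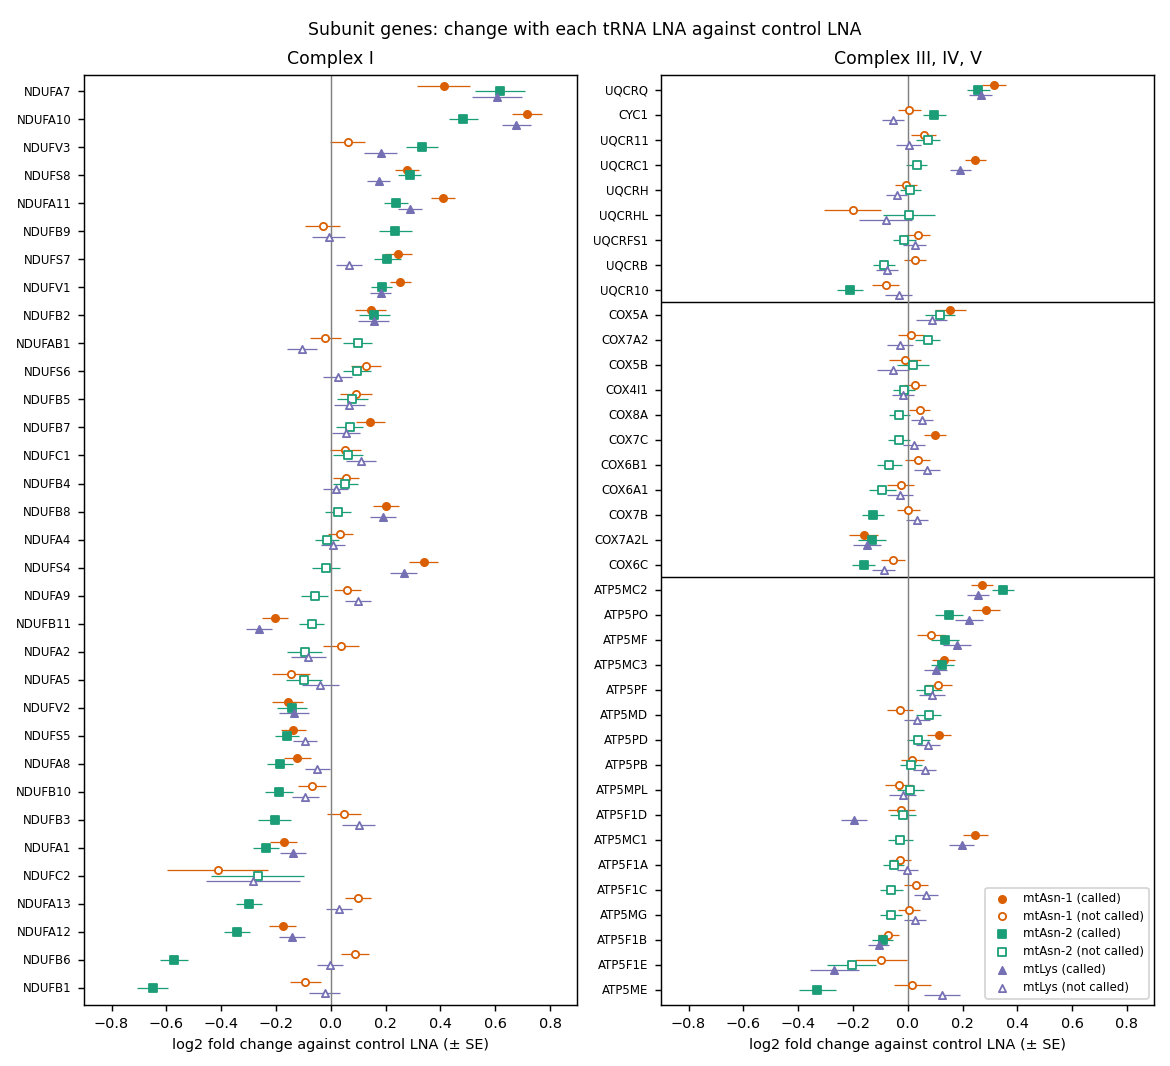
Log2 fold change (± SE, horizontal axis) of tested subunit genes in mtAsn-1, mtAsn-2 and mtLys cells against the control LNA; filled symbols passed the threshold and open ones did not, complex I is on the left, and complexes III, IV and V are on the right. ATP5MGL and COX6B2, with under 1 CPM in every library, are among the genes not drawn. Most symbols lie near 0, NDUFA10 lies farthest to the right in mtAsn-1 cells (0.72), and NDUFB1 (-0.65) and NDUFB6 (-0.57) lie farthest to the left in mtAsn-2 cells.

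Promoter windows of 5 members are shown because these genes had the largest called rise of complexes I and III in mtAsn-1 cells (NDUFA10 and UQCRQ) and the largest called falls of complexes I and V in mtAsn-2 cells (NDUFB1, NDUFB6 and ATP5ME). They run from 250 bases before to 50 bases after the RefSeq start of each gene (GRCh38.p14), 5′ to 3′ on the gene's own strand, with capitals for matches to 3 short motifs on either strand. The motifs were GCGCATGC, a core of the site of NRF1, CCGGAAG, a core of ETS factors such as GABPA, and AAGATGGC, a core of YY1, all of which are known to act at respiratory chain promoters. The windows of NDUFA10 (chr2:240025293-240025592, minus strand), NDUFB6 (chr9:32573110-32573409, minus strand) and NDUFB1 (chr14:92121657-92121956, minus strand) hold none of these letters. That of UQCRQ (chr5:132866392-132866691, plus strand) holds CCGGAAG 54 bases before the start, and that of ATP5ME (chr4:674227-674526, minus strand) holds GCGCATGC 78 bases before it and CCGGAAG on the reverse strand 3 bases after it.
NDUFA10: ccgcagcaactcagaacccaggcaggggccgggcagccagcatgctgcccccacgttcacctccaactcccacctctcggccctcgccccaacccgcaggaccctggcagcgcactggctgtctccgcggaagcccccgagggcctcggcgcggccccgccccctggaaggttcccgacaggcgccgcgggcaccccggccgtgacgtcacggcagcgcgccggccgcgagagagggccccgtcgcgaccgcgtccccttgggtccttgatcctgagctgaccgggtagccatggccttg
UQCRQ: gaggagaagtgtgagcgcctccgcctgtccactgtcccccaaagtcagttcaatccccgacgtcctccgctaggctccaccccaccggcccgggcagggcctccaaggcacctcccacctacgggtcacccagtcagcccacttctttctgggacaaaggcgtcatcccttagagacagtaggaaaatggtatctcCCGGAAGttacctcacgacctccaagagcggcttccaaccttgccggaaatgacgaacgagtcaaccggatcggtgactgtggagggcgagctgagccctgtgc
NDUFB6: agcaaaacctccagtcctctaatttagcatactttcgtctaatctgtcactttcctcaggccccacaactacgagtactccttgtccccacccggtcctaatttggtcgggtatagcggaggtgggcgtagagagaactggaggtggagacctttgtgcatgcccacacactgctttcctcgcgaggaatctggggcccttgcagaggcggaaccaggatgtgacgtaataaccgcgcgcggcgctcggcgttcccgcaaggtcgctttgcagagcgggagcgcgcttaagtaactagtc
NDUFB1: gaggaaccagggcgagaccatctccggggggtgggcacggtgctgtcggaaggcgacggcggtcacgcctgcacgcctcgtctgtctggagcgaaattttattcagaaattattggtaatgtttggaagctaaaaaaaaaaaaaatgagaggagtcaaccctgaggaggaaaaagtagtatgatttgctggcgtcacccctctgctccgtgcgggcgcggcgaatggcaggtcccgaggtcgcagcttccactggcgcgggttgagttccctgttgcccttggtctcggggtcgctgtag
ATP5ME: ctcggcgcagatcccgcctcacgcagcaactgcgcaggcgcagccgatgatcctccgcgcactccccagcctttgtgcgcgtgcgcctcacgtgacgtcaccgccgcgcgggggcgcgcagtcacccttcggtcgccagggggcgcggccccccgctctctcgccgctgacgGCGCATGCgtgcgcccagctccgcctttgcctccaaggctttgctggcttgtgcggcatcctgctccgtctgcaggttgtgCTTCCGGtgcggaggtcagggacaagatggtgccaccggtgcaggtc

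The nuclear core subunits of complex I carry its flavin and iron-sulphur clusters. NDUFV1, which binds NADH and the flavin, had 144, 145 and 142 CPM in mtAsn-1 cells, 135, 138 and 138 in mtAsn-2 cells, 135, 137 and 139 in mtLys cells, against 117, 122 and 122 in control cells. The libraries of all 3 tRNA LNAs were above every control library, and the log2 fold changes were 0.25 ± 0.039 (adjusted p = 4.09e-06) in mtAsn-1 cells, 0.19 ± 0.038 (adjusted p = 0.000166) in mtAsn-2 cells and 0.18 ± 0.038 (adjusted p = 0.000266) in mtLys cells (SE; edgeR quasi-likelihood F test). NDUFS8, which holds a pair of iron-sulphur clusters near the quinone site, had 123, 132 and 124 CPM in mtAsn-1 cells, 126, 123 and 132 in mtAsn-2 cells, 116, 119 and 117 in mtLys cells, against 104, 103 and 106 in control cells. Again no library of a tRNA LNA reached down to the controls, with log2 fold changes of 0.28 ± 0.043 (adjusted p = 3.68e-06), 0.29 ± 0.042 (adjusted p = 1.33e-06) and 0.17 ± 0.042 (adjusted p = 0.00101) for mtAsn-1, mtAsn-2 and mtLys. NDUFS7, which carries the last cluster before ubiquinone, had 83.1, 84.1 and 79.4 CPM in mtAsn-1 cells, 78.9, 76.7 and 84.2 in mtAsn-2 cells, 74.2, 69.5 and 74.0 in mtLys cells, against 72.6, 68.4 and 66.5 in control cells. It rose in mtAsn-1 cells (0.25 ± 0.049, adjusted p = 0.000144) and in mtAsn-2 cells (0.21 ± 0.048, adjusted p = 0.000662), and in mtLys cells it overlapped the controls (0.07 ± 0.048, adjusted p = 0.269).

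NDUFV2, the partner of NDUFV1, was 45.4 to 53.7 CPM in mtAsn-1 cells, 49.4 to 51.1 CPM in mtAsn-2 cells and 47.8 to 52.1 CPM in mtLys cells, against 53.2 to 56.8 CPM in control cells. It was called lower with each LNA, at -0.16 ± 0.056 (adjusted p = 0.0213), -0.14 ± 0.054 (adjusted p = 0.0304) and -0.13 ± 0.054 (adjusted p = 0.0434). The mtAsn-1 call was lost in 3 of 20 other settings (adjusted p up to 0.186, namely those without replicate 1 of mtAsn-1 or replicates 2 or 3 of control). For mtAsn-2 it was lost in 6 of 20 other settings (adjusted p up to 0.116, among them those without replicates 2 or 3 of mtAsn-2 or replicates 2 or 3 of control). For mtLys it was lost in 8 of 20 other settings (adjusted p up to 0.243, among them those without replicate 2 of mtAsn-2, replicates 2 or 3 of mtLys or replicates 2 or 3 of control).

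Among the accessory subunits of complex I, which surround the core and are needed to build it, NDUFA10 had the largest rise in mtAsn-1 cells and in mtLys cells. This subunit of the membrane arm (chr2:239892442-240025402, minus strand, hg38) had 71.8, 66.0 and 69.1 CPM in mtAsn-1 cells, 60.1, 57.3 and 58.8 in mtAsn-2 cells, 68.6, 62.4 and 70.7 in mtLys cells, against 40.2, 41.7 and 44.4 in control cells. Every library of a tRNA LNA stood well above every control library. The log2 fold changes were 0.72 ± 0.055 (adjusted p = 1.48e-11) in mtAsn-1 cells, 0.48 ± 0.054 (adjusted p = 1.29e-08) in mtAsn-2 cells and 0.68 ± 0.053 (adjusted p = 2.57e-11) in mtLys cells. NDUFA10 was also higher in mtAsn-1 cells than in mtAsn-2 cells (0.23 ± 0.052, adjusted p = 0.000532). It was lower in mtAsn-2 cells than in mtLys cells (-0.19 ± 0.051, adjusted p = 0.00229). Per kilobase of merged exon it was the lowest of the 34 tested complex I genes in control cells, at 3.35 ± 0.171 RPKM (SD). As given above, its entry has a copy on an alternate scaffold with 0 reads. Whether its count covers the whole gene was not tested.

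NDUFA11, which joins the membrane arm and helps complex I bind complex III, had 147, 141 and 138 CPM in mtAsn-1 cells, 125, 121 and 133 in mtAsn-2 cells, 127, 134 and 131 in mtLys cells, against 105, 111 and 105 in control cells. All groups were clear of the controls, and the log2 fold changes were 0.41 ± 0.044 (adjusted p = 1.11e-08) in mtAsn-1 cells, 0.24 ± 0.043 (adjusted p = 3.77e-05) in mtAsn-2 cells and 0.29 ± 0.043 (adjusted p = 2.79e-06) in mtLys cells. NDUFA7 is a less abundant accessory subunit, with 17.4 to 19.3 CPM in mtAsn-1 cells, 18.7 to 22.8 CPM in mtAsn-2 cells and 19.0 to 22.8 CPM in mtLys cells, against 11.9 to 15.6 CPM in control cells. Its log2 fold changes were 0.41 ± 0.096 (adjusted p = 0.00095), 0.62 ± 0.090 (adjusted p = 2.75e-06) and 0.61 ± 0.090 (adjusted p = 4.58e-06) for mtAsn-1, mtAsn-2 and mtLys. NDUFV3, an accessory subunit beside the NADH site, had 25.2, 24.8 and 24.5 CPM in mtAsn-1 cells, 31.0, 28.5 and 30.3 in mtAsn-2 cells, 25.6, 28.7 and 26.6 in mtLys cells, against 23.3, 24.4 and 23.5 in control cells. It was higher in mtAsn-2 cells (0.33 ± 0.059, adjusted p = 2.66e-05) and in mtLys cells (0.18 ± 0.060, adjusted p = 0.0129), and lay just above the controls in mtAsn-1 cells without passing (0.06 ± 0.063, adjusted p = 0.446). The mtLys call was lost in 1 of 20 other settings (adjusted p up to 0.0861, namely that without replicate 2 of mtLys).

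NDUFS4, a late-assembled accessory subunit whose loss causes Leigh syndrome, had 51.6, 52.1 and 50.1 CPM in mtAsn-1 cells, 41.1, 39.8 and 39.0 in mtAsn-2 cells, 50.5, 45.9 and 49.6 in mtLys cells, against 39.1, 40.9 and 41.6 in control cells. Libraries of mtAsn-1 and mtLys cells lay above the controls and those of mtAsn-2 cells among them. The log2 fold changes were 0.34 ± 0.052 (adjusted p = 4.28e-06) in mtAsn-1 cells, -0.02 ± 0.051 (adjusted p = 0.788) in mtAsn-2 cells and 0.27 ± 0.051 (adjusted p = 8.39e-05) in mtLys cells. NDUFB8, a membrane-arm subunit often used as a marker of assembled complex I, behaved alike: 0.20 ± 0.047 (adjusted p = 0.000856) in mtAsn-1 cells, 0.03 ± 0.047 (adjusted p = 0.674) in mtAsn-2 cells and 0.19 ± 0.046 (adjusted p = 0.00118) in mtLys cells.

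**Figure D4:**
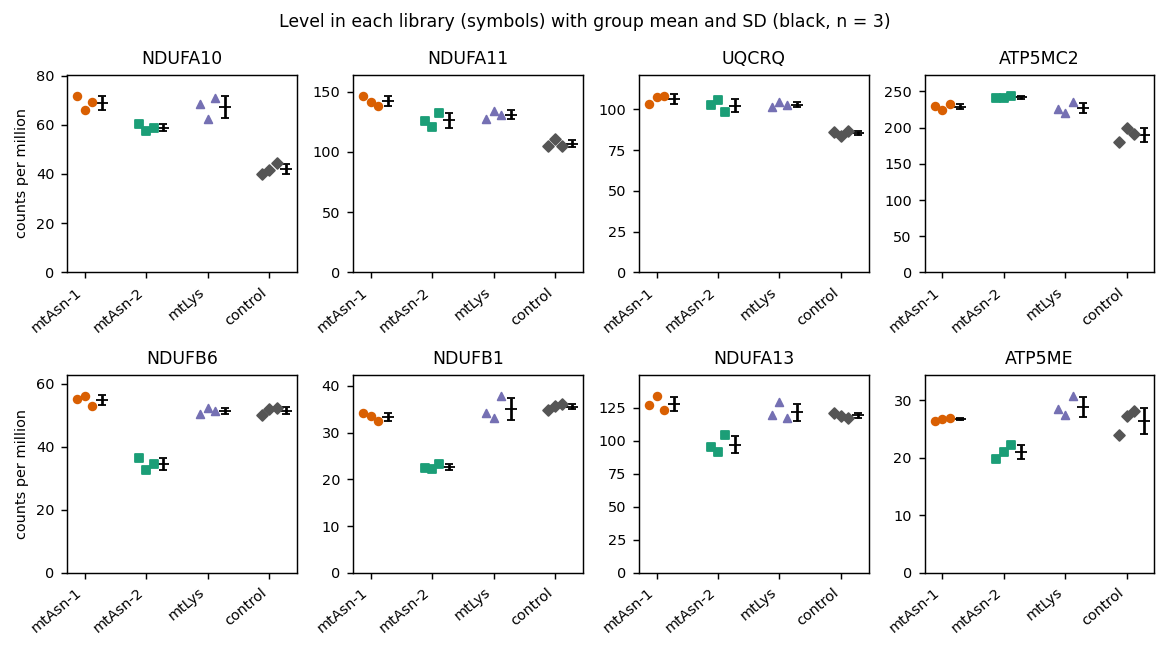
Level (CPM, vertical axis from 0) of 8 subunit genes in each of the 3 libraries per group (symbols), with the group mean and SD in black. In the upper row the tRNA LNA libraries lie above the controls, as for NDUFA10 at 57.3 to 71.8 CPM, against 40.2 to 44.4 CPM in control cells; in the lower row the mtAsn-2 libraries lie below the other groups, as for NDUFB6 at 32.7 to 36.4 CPM in mtAsn-2 cells, against 50.2 to 52.3 CPM in control cells.

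The falls in complex I were largest in mtAsn-2 cells. NDUFB6, a small subunit of the membrane arm (chr9:32553001-32573184, minus strand), had 55.3, 56.1 and 53.0 CPM in mtAsn-1 cells, 36.4, 32.7 and 34.6 in mtAsn-2 cells, 50.3, 52.3 and 51.5 in mtLys cells, against 50.2, 52.0 and 52.3 in control cells. The 3 mtAsn-2 libraries were far below all others, the mtLys libraries overlapped the controls, and those in mtAsn-1 cells lay just above them. NDUFB6 fell in mtAsn-2 cells (-0.57 ± 0.050, adjusted p = 1.66e-10), and its values were 0.09 ± 0.050 (adjusted p = 0.15) in mtAsn-1 cells and -0.0027 ± 0.049 (adjusted p = 0.971) in mtLys cells. The direct differences passed as well, at 0.66 ± 0.051 (adjusted p = 1.26e-11) for mtAsn-1 against mtAsn-2 and -0.57 ± 0.049 (adjusted p = 1.35e-10) for mtAsn-2 against mtLys. On the opposite strand SMIM27 shares 17 bases with NDUFB6, held 221 reads in all and was -0.90 ± 0.27 (adjusted p = 0.00722) in mtAsn-2 cells.

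NDUFB1, another small membrane-arm subunit (chr14:92116123-92121706, minus strand), had 34.1, 33.5 and 32.5 CPM in mtAsn-1 cells, 22.4, 22.1 and 23.3 in mtAsn-2 cells, 34.2, 33.2 and 37.8 in mtLys cells, against 34.9, 35.8 and 36.0 in control cells. The mtAsn-2 libraries were far below all others, those of mtAsn-1 cells lay just below the controls, and those of mtLys cells overlapped them. Its log2 fold change was -0.65 ± 0.057 (adjusted p = 1.78e-10) in mtAsn-2 cells, -0.09 ± 0.058 (adjusted p = 0.192) in mtAsn-1 cells and -0.02 ± 0.055 (adjusted p = 0.766) in mtLys cells. The direct log2 differences were 0.56 ± 0.059 (adjusted p = 6.68e-09) for mtAsn-1 against mtAsn-2 and -0.63 ± 0.056 (adjusted p = 2.5e-10) for mtAsn-2 against mtLys.

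NDUFA13, also known as GRIM-19 and described both in complex I and in cell death, had 127, 134 and 123 CPM in mtAsn-1 cells, 95.4, 91.2 and 104 in mtAsn-2 cells, 119, 129 and 117 in mtLys cells, against 121, 119 and 118 in control cells. With mtAsn-2 it fell (-0.30 ± 0.049, adjusted p = 7.54e-06), and it was 0.10 ± 0.049 (adjusted p = 0.0961) in mtAsn-1 cells and 0.03 ± 0.048 (adjusted p = 0.637) in mtLys cells. The difference was 0.40 ± 0.049 (adjusted p = 1.09e-07) for mtAsn-1 against mtAsn-2 and -0.33 ± 0.048 (adjusted p = 1.77e-06) for mtAsn-2 against mtLys. NDUFB3, a further membrane-arm subunit, fell in mtAsn-2 cells (-0.20 ± 0.060, adjusted p = 0.00504), and it was higher in mtAsn-1 cells than in mtAsn-2 cells (0.25 ± 0.060, adjusted p = 0.00106) and lower in mtAsn-2 cells than in mtLys cells (-0.31 ± 0.058, adjusted p = 6.72e-05).

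Some subunits of complex I fell with more than 1 LNA. NDUFA12, on the matrix arm, had 49.6, 54.4 and 53.4 CPM in mtAsn-1 cells, 47.3, 47.0 and 46.0 in mtAsn-2 cells, 53.2, 53.3 and 54.4 in mtLys cells, against 57.0, 60.0 and 60.8 in control cells. Its log2 fold changes were -0.18 ± 0.049 (adjusted p = 0.00389) in mtAsn-1 cells, -0.34 ± 0.048 (adjusted p = 7.18e-07) in mtAsn-2 cells and -0.14 ± 0.047 (adjusted p = 0.0136) in mtLys cells. The mtLys call was lost in 3 of 20 other settings (adjusted p up to 0.0553, among them those without replicates 2 or 3 of control). NDUFA1, encoded on the X chromosome, was -0.17 ± 0.049 (adjusted p = 0.00496), -0.24 ± 0.048 (adjusted p = 0.00016) and -0.14 ± 0.048 (adjusted p = 0.0181) for mtAsn-1, mtAsn-2 and mtLys. For NDUFA1 the mtAsn-1 call was lost in 1 of 20 other settings (adjusted p up to 0.0576, namely that without replicate 3 of mtAsn-1). Its mtLys call was lost in 2 of 20 other settings (adjusted p up to 0.109, namely those without replicate 2 of mtLys or replicate 2 of control). NDUFB11, also X-linked, had 62.7, 61.4 and 60.8 CPM in mtAsn-1 cells, 66.6, 67.0 and 69.2 in mtAsn-2 cells, 59.5, 56.5 and 61.5 in mtLys cells, against 71.0, 73.2 and 68.3 in control cells. It fell in mtAsn-1 cells (-0.20 ± 0.047, adjusted p = 0.000759) and in mtLys cells (-0.26 ± 0.046, adjusted p = 2.76e-05) and was -0.07 ± 0.046 (adjusted p = 0.216) in mtAsn-2 cells. RBM10 overlaps the end of NDUFB11 by 15 bases on the opposite strand and was 0.11, 0.21 and 0.11 in the same order of LNAs (adjusted p = 0.0358, 0.000105 and 0.0345).

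Another 5 accessory subunits of complex I passed with small changes. NDUFA8, on the intermembrane side, was lower in mtAsn-2 cells (-0.18 ± 0.047, adjusted p = 0.00175). It was also lower in mtAsn-1 cells (-0.12 ± 0.049, adjusted p = 0.0394). The mtAsn-1 call was lost in 11 of 20 other settings (adjusted p up to 0.153, among them those without replicates 2 or 3 of mtAsn-1, replicates 1, 2 or 3 of mtLys or replicates 1 or 2 of control). NDUFS5, another protein of that side, was lower in mtAsn-2 cells (-0.16 ± 0.044, adjusted p = 0.00314) and in mtAsn-1 cells (-0.14 ± 0.045, adjusted p = 0.0126). For NDUFS5 the mtAsn-1 call was lost in 3 of 20 other settings (adjusted p up to 0.0806, namely those without replicates 2 or 3 of mtAsn-1 or replicate 2 of control). NDUFB10, of the membrane arm, was lower in mtAsn-2 cells (-0.19 ± 0.050, adjusted p = 0.00215). NDUFB2 was higher with each LNA, at 0.15 ± 0.058 (adjusted p = 0.0386), 0.16 ± 0.055 (adjusted p = 0.0177) and 0.16 ± 0.056 (adjusted p = 0.021). Its mtAsn-1 call was lost in 7 of 20 other settings (adjusted p up to 0.295, among them those without replicates 1 or 3 of mtAsn-1 or replicate 1 of control). For mtAsn-2 it was lost in 1 of 20 other settings (adjusted p up to 0.19, namely that without replicate 1 of control). For mtLys it was lost in 2 of 20 other settings (adjusted p up to 0.21, namely those without replicate 2 of mtLys or replicate 1 of control). NDUFB7 was higher in mtAsn-1 cells (0.14 ± 0.051, adjusted p = 0.021). That call was lost in 3 of 20 other settings (adjusted p up to 0.132, among them those without replicate 1 of mtAsn-1 or replicate 3 of control).

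NDUFB9 rose in mtAsn-2 cells (0.24 ± 0.059, adjusted p = 0.00135) and not in mtAsn-1 cells (-0.03 ± 0.063, adjusted p = 0.723) or in mtLys cells (-0.0071 ± 0.060, adjusted p = 0.936), and TATDN1 shares 25.9% of its exon length on the opposite strand, so its reads are uncertain. NDUFA4, matched by name among the complex I genes, is now regarded as a subunit of complex IV. It did not pass with any LNA, at 0.04 ± 0.045 (adjusted p = 0.552), -0.01 ± 0.045 (adjusted p = 0.809) and 0.0078 ± 0.045 (adjusted p = 0.902) for mtAsn-1, mtAsn-2 and mtLys. NDUFAB1, the mitochondrial acyl carrier protein, was -0.02 ± 0.056 (adjusted p = 0.802), 0.10 ± 0.054 (adjusted p = 0.134) and -0.11 ± 0.055 (adjusted p = 0.109), and passed in mtAsn-2 cells in 1 setting only, without control replicate 2 (adjusted p = 0.0428).

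In complex III, UQCRQ and UQCRC1 had the largest rises. UQCRQ, a small subunit next to cytochrome b (chr5:132866642-132868847, plus strand), had 103, 108 and 108 CPM in mtAsn-1 cells, 103, 106 and 98.2 in mtAsn-2 cells, 101, 105 and 103 in mtLys cells, against 86.3, 84.0 and 86.6 in control cells. GDF9 shares 62 bases with it on the opposite strand and held 179 reads in all. No library of a tRNA LNA overlapped the controls, with log2 fold changes of 0.32 ± 0.043 (adjusted p = 6.22e-07) for mtAsn-1, 0.26 ± 0.042 (adjusted p = 8.45e-06) for mtAsn-2 and 0.27 ± 0.042 (adjusted p = 6.35e-06) for mtLys. UQCRC1, a core subunit of the matrix side, had 215, 211 and 200.5 CPM in mtAsn-1 cells, 178, 177 and 185 in mtAsn-2 cells, 198, 206 and 199 in mtLys cells, against 179, 175 and 175 in control cells. It rose in mtAsn-1 cells (0.25 ± 0.040, adjusted p = 7.66e-06) and in mtLys cells (0.19 ± 0.039, adjusted p = 0.000181) and was 0.03 ± 0.039 (adjusted p = 0.518) in mtAsn-2 cells. It was higher in mtAsn-1 cells than in mtAsn-2 cells (0.21 ± 0.039, adjusted p = 4.98e-05).

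UQCR10, another small subunit, fell in mtAsn-2 cells: it had 45.5 to 48.2 CPM in mtAsn-1 cells, 42.6 to 43.3 CPM in mtAsn-2 cells and 47.0 to 49.3 CPM in mtLys cells, against 48.3 to 51.8 CPM in control cells. The log2 fold change was -0.21 ± 0.048 (adjusted p = 0.000592) in mtAsn-2 cells, -0.08 ± 0.050 (adjusted p = 0.188) in mtAsn-1 cells and -0.03 ± 0.048 (adjusted p = 0.594) in mtLys cells. CYC1, which hands electrons to cytochrome c, had 201, 187 and 189 CPM in mtAsn-1 cells, 204, 201 and 210.3 in mtAsn-2 cells, 182, 193 and 178 in mtLys cells, against 188, 197 and 191 in control cells. Its call in mtAsn-2 cells was at the threshold (0.10 ± 0.041, adjusted p = 0.0493). It was lost in 8 of 20 other settings (adjusted p up to 0.152, among them those without replicate 3 of mtAsn-1, replicates 1 or 3 of mtAsn-2, replicates 1 or 3 of mtLys or replicates 1 or 3 of control). The Rieske iron-sulphur protein UQCRFS1 did not pass with any LNA, at 0.04 ± 0.044 (adjusted p = 0.505), -0.01 ± 0.043 (adjusted p = 0.831) and 0.03 ± 0.043 (adjusted p = 0.656) for mtAsn-1, mtAsn-2 and mtLys. UQCRH (-0.0063, 0.0092 and -0.04, adjusted p at least 0.414) has a near-identical intronless copy, UQCRHL, at 7.80 ± 1.04 CPM in mtAsn-1 cells, 9.02 ± 0.223 CPM in mtAsn-2 cells and 8.50 ± 0.281 CPM in mtLys cells, against 8.96 ± 0.976 CPM in control cells (SD, n = 3), and reads can be shared between the pair.

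COX4I1, COX5B, COX6A1, COX6B1, COX7A2 and COX8A did not pass against the control LNA with any LNA in the main fit. In mtAsn-2 cells COX7A2 passed without control replicate 2 (0.13, adjusted p = 0.0379). COX6A1 passed there with libraries thinned to the smallest total (-0.12, adjusted p = 0.0423). COX4I1, the largest nuclear subunit, was 0.03 ± 0.041 (adjusted p = 0.626) in mtAsn-1 cells, -0.01 ± 0.040 (adjusted p = 0.794) in mtAsn-2 cells and -0.02 ± 0.040 (adjusted p = 0.73) in mtLys cells. COX5B, which binds zinc, was -0.0092 ± 0.059 (adjusted p = 0.913), 0.02 ± 0.058 (adjusted p = 0.813) and -0.05 ± 0.058 (adjusted p = 0.468) in the same order. The standard errors bound these changes to a small size, and the values do not show that the levels are equal.

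COX6C, a small membrane subunit, was 108 to 115 CPM in mtAsn-1 cells, 100.1 to 106 CPM in mtAsn-2 cells and 104 to 111 CPM in mtLys cells, against 113 to 116 CPM in control cells. It fell in mtAsn-2 cells (-0.16 ± 0.042, adjusted p = 0.00213), at -0.05 ± 0.043 (adjusted p = 0.314) in mtAsn-1 cells and -0.09 ± 0.042 (adjusted p = 0.0846) in mtLys cells. COX7B, an X-linked small subunit, had 113 to 119 CPM in mtAsn-1 cells, 106 to 108 CPM in mtAsn-2 cells and 117 to 123 CPM in mtLys cells, against 115 to 121 CPM in control cells. The mtAsn-2 libraries lay below all others (-0.13 ± 0.041, adjusted p = 0.0108 against the control LNA). The call was lost in 2 of 20 other settings (adjusted p up to 0.116, among them that without replicate 3 of control). The difference of mtAsn-2 against mtLys was -0.16 ± 0.040 (adjusted p = 0.00151). The 2 rises in mtAsn-1 cells were fragile. COX5A, which sits on the matrix side of complex IV, was 0.16 ± 0.058 (adjusted p = 0.0277) in mtAsn-1 cells. This call was lost in 4 of 20 other settings (adjusted p up to 0.123, namely those without replicates 1 or 2 of mtAsn-1 or replicates 1 or 3 of control). In mtAsn-2 cells COX5A was 0.12 (adjusted p = 0.0843). It passed there in some other settings, as with no filter on low counts (0.15, adjusted p = 0.0123). In mtLys cells it passed without mtLys replicate 2 (adjusted p = 0.0267). COX7C was 0.10 ± 0.040 (adjusted p = 0.046) in mtAsn-1 cells. Its call was lost in 14 of 20 other settings (adjusted p up to 0.21, among them those without replicates 1 or 2 of mtAsn-1, replicates 1 or 2 of mtAsn-2, replicates 1 or 3 of mtLys or replicates 1, 2 or 3 of control).

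COX7A2L, a relative of COX7A2 that bridges complexes III and IV in supercomplexes, had 64.0, 72.9 and 66.8 CPM in mtAsn-1 cells, 71.3, 69.8 and 66.5 in mtAsn-2 cells, 65.8, 68.3 and 71.1 in mtLys cells, against 72.8, 80.1 and 74.2 in control cells. It was called lower with each LNA, at -0.16 ± 0.053 (adjusted p = 0.0128) in mtAsn-1 cells, -0.13 ± 0.051 (adjusted p = 0.0339) in mtAsn-2 cells and -0.15 ± 0.051 (adjusted p = 0.0169) in mtLys cells. The mtAsn-1 call was lost in 2 of 20 other settings (adjusted p up to 0.112, namely those without replicate 1 of mtAsn-1 or replicate 2 of control). For mtAsn-2 it was lost in 8 of 20 other settings (adjusted p up to 0.229, among them those without replicates 2 or 3 of mtAsn-2, replicate 2 of mtLys or replicate 2 of control). For mtLys it was lost in 2 of 20 other settings (adjusted p up to 0.144, namely those without replicate 1 of mtLys or replicate 2 of control). COX6B2, the testis form of COX6B1, stayed between 0.138 and 0.481 CPM, so no direction is read from it.

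Complex V combines a catalytic head (F1), a stalk and a membrane rotor. In the rotor, the c-ring protein is encoded by 3 genes whose mature proteins are the same. ATP5MC2 had 229.9, 225 and 233 CPM in mtAsn-1 cells, 241, 241 and 244 in mtAsn-2 cells, 226, 221 and 235 in mtLys cells, against 180.2, 199 and 191 in control cells. All tRNA LNA libraries were above the controls, at 0.27 ± 0.041 (adjusted p = 3.07e-06) in mtAsn-1 cells, 0.35 ± 0.040 (adjusted p = 2.85e-08) in mtAsn-2 cells and 0.26 ± 0.040 (adjusted p = 5.37e-06) in mtLys cells. ATP5MC1 had 77.5, 73.0 and 78.1 CPM in mtAsn-1 cells, 64.1, 63.0 and 62.3 in mtAsn-2 cells, 71.9, 76.1 and 73.4 in mtLys cells, against 62.7, 66.9 and 63.2 in control cells. It rose in mtAsn-1 cells (0.25 ± 0.047, adjusted p = 7e-05) and in mtLys cells (0.20 ± 0.046, adjusted p = 0.000695), was -0.03 ± 0.046 (adjusted p = 0.655) in mtAsn-2 cells, and was higher in mtAsn-1 cells than in mtAsn-2 cells (0.27 ± 0.046, adjusted p = 1.48e-05). ATP5MC3 rose by less, at 0.13 ± 0.042 (adjusted p = 0.011), 0.13 ± 0.041 (adjusted p = 0.0119) and 0.10 ± 0.041 (adjusted p = 0.044). The mtAsn-1 call was lost in 2 of 20 other settings (adjusted p up to 0.0823, namely those without replicate 1 of mtAsn-1 or replicate 1 of control). For mtAsn-2 it was lost in 1 of 20 other settings (adjusted p up to 0.0744, namely that without replicate 1 of control). For mtLys it was lost in 8 of 20 other settings (adjusted p up to 0.197, among them those without replicate 2 of mtAsn-2, replicates 2 or 3 of mtLys or replicates 1 or 2 of control).

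ATP5PO, the protein at the tip of the peripheral stalk that confers oligomycin sensitivity, had 82.5, 87.5 and 77.8 CPM in mtAsn-1 cells, 76.6, 75.4 and 73.3 in mtAsn-2 cells, 79.4, 74.4 and 83.1 in mtLys cells, against 64.5, 68.9 and 69.7 in control cells. The groups with tRNA LNAs were above the controls, at 0.28 ± 0.052 (adjusted p = 4.04e-05) for mtAsn-1, 0.15 ± 0.050 (adjusted p = 0.0136) for mtAsn-2 and 0.22 ± 0.050 (adjusted p = 0.000567) for mtLys. The ATP5PO call for mtAsn-2 was lost in 1 of 20 other settings (adjusted p up to 0.0873, namely that without replicate 1 of control). ATP5MF, a membrane subunit that shares 30.6% of its exon length with the read-through gene ATP5MF-PTCD1 (0 reads), was 0.08 ± 0.052 (adjusted p = 0.185) in mtAsn-1 cells, 0.14 ± 0.050 (adjusted p = 0.0232) in mtAsn-2 cells and 0.18 ± 0.050 (adjusted p = 0.00369) in mtLys cells. The ATP5MF call for mtAsn-2 was lost in 4 of 20 other settings (adjusted p up to 0.139, among them those without replicate 2 of mtAsn-2 or replicates 1 or 3 of control). ATP5PD, of the peripheral stalk, was higher in mtAsn-1 cells (0.11 ± 0.044, adjusted p = 0.0331). This call was lost in 5 of 20 other settings (adjusted p up to 0.138, among them those without replicates 2 or 3 of mtAsn-1 or replicate 1 of control).

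ATP5ME, the e subunit that helps pairs of ATP synthase form (chr4:672436-674276, minus strand), had 26.5, 26.7 and 26.8 CPM in mtAsn-1 cells, 19.7, 21.0 and 22.2 in mtAsn-2 cells, 28.4, 27.4 and 30.7 in mtLys cells, against 23.9, 27.3 and 28.2 in control cells. With mtAsn-2 every library was below those of the other groups. ATP5ME fell in mtAsn-2 cells (-0.33 ± 0.067, adjusted p = 0.000139) and was 0.02 ± 0.068 (adjusted p = 0.859) in mtAsn-1 cells and 0.13 ± 0.065 (adjusted p = 0.112) in mtLys cells. The differences between LNAs were 0.35 ± 0.068 (adjusted p = 0.000114) for mtAsn-1 against mtAsn-2 and -0.46 ± 0.064 (adjusted p = 1.06e-06) for mtAsn-2 against mtLys. MYL5 overlaps 65 bases of ATP5ME on the opposite strand, 21.4% of its exon length, and was itself 0.22 ± 0.089 (adjusted p = 0.0392), -0.20 ± 0.088 (adjusted p = 0.0544) and 0.42 ± 0.084 (adjusted p = 0.000135) for mtAsn-1, mtAsn-2 and mtLys. How far reads of MYL5 enter the ATP5ME count was not tested.

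No gene of the F1 head was called higher against the control LNA. ATP5F1A, its alpha subunit, did not pass with any LNA, at -0.03 ± 0.038 (adjusted p = 0.588), -0.05 ± 0.037 (adjusted p = 0.258) and -0.0012 ± 0.037 (adjusted p = 0.984) for mtAsn-1, mtAsn-2 and mtLys. ATP5F1B, the beta subunit that makes ATP, had 1046 to 1077 CPM in mtAsn-1 cells, 1032 to 1069 CPM in mtAsn-2 cells and 1010 to 1072 CPM in mtLys cells, against 1077 to 1165 CPM in control cells. It was -0.09 ± 0.038 (adjusted p = 0.0426) in mtAsn-2 cells, -0.11 ± 0.038 (adjusted p = 0.021) in mtLys cells and -0.07 ± 0.038 (adjusted p = 0.127) in mtAsn-1 cells. The mtAsn-2 call was lost in 16 of 20 other settings (adjusted p up to 0.282, among them those without replicates 1 or 3 of mtAsn-1, replicates 1, 2 or 3 of mtAsn-2, replicates 1, 2 or 3 of mtLys or replicates 2 or 3 of control). The mtLys call was lost in 4 of 20 other settings (adjusted p up to 0.148, among them those without replicates 1 or 2 of mtLys or replicate 2 of control). ATP5F1D, the delta subunit of the central stalk, had 92.6, 88.4 and 86.1 CPM in mtAsn-1 cells, 88.4, 86.8 and 92.8 in mtAsn-2 cells, 81.0, 74.7 and 81.0 in mtLys cells, against 93.6, 91.3 and 86.0 in control cells. Its mtLys libraries were below all others, with -0.20 ± 0.047 (adjusted p = 0.00102) for mtLys, -0.02 ± 0.048 (adjusted p = 0.721) for mtAsn-1 and -0.02 ± 0.047 (adjusted p = 0.779) for mtAsn-2. ATP5F1E, the epsilon subunit, was -0.27 ± 0.090 (adjusted p = 0.0156) in mtLys cells. That call was lost in 2 of 20 other settings (adjusted p up to 0.129, namely those without replicate 1 of mtLys or replicate 2 of control). TUBB1 overlaps 32.7% of its exon length on the opposite strand with 125 reads in all.

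Direct comparisons between the LNAs set no level against the controls, although the control libraries are in the same fit and share in its spread and scaling. mtAsn-1 against mtAsn-2 had 23 of 73 members past the threshold, 20 higher and 3 lower in mtAsn-1 cells, beside 46.5% of all genes, 24.6% higher and 21.9% lower. mtAsn-2 against mtLys had 26, 8 higher and 18 lower in mtAsn-2 cells, beside 48.6% of all genes, 22.9% higher and 25.7% lower. mtAsn-1 against mtLys had 2, both higher in mtAsn-1 cells, beside 5.26% of all genes, 2.12% higher and 3.14% lower. The members' median log2 fold change was 0.05, -0.02 and 0.02 in that order of comparisons, beside -0.0013, 0.0052 and 0.00034 for all genes. The first was 0.0225 without mtAsn-2 replicate 2 and the second -0.0136 without mtLys replicate 3. The third was 0.0127 without mtAsn-1 replicate 2, 0.0090 without mtLys replicate 1 and -0.0030 without mtLys replicate 2. The 2 calls between mtAsn-1 and mtLys were NDUFS7 (0.18 ± 0.048, adjusted p = 0.0263) and ATP5F1D (0.17 ± 0.048, adjusted p = 0.0299). Both were lost without mtAsn-1 replicate 1 (adjusted p = 0.0932 and 0.152) or 2 (0.0841 and 0.0537) and without mtLys replicate 2 (0.160 and 0.198) or 3 (0.0607 and 0.0569), which leaves none. The 3 members lower in mtAsn-1 cells than in mtAsn-2 cells were NDUFV3 (-0.27 ± 0.060, adjusted p = 0.000471), NDUFB9 (-0.27 ± 0.060, adjusted p = 0.000603) and NDUFB11 (-0.13 ± 0.047, adjusted p = 0.0191). The NDUFB11 call was lost in 2 of 20 other settings (adjusted p up to 0.0703, namely those without replicate 3 of mtAsn-1 or replicate 3 of mtAsn-2).

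RefSeq promoter windows, 27305 in all, were found for 64 of the 83 members and searched for the NRF1, ETS and YY1 cores. GCGCATGC was in 11 of them (17.2%), against 3.27% of all promoters. CCGGAAG was in 17 (26.6%), against 10.7%, and AAGATGGC in 10 (15.6%), against 3.03%. Of 10 tested members with GCGCATGC, 2 were higher and 1 lower in mtAsn-1 cells, 2 and 2 in mtAsn-2 cells, and 1 and 0 in mtLys cells. Of 15 with CCGGAAG, 3 were higher and 1 lower in mtAsn-1 cells, 1 and 3 in mtAsn-2 cells, and 1 and 1 in mtLys cells. Of 8 with AAGATGGC, 5 were higher in mtAsn-1 cells, 3 in mtAsn-2 cells and 4 in mtLys cells, and none was lower. The 5 were UQCRC1, NDUFS4, NDUFA7, NDUFS7 and ATP5PO, and the other tested holders, NDUFA9, ATP5PB and ATP5PF, did not pass. Of all 73 tested members, 20 were higher and 7 lower in mtAsn-1 cells, 15 and 16 in mtAsn-2 cells, and 17 and 8 in mtLys cells. Of all genes tested, 24.3%, 24.1% and 24.6% were higher and 24.2%, 27.0% and 23.9% lower in that order. The motif groups are small beside these, and no difference is read from them. These counts come from fits already used to describe the members and carry no test. A match is a match of letters and no evidence of binding.

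The proteins around the chain were read from lists of related genes, and their calls are counts without a test of the list. Beside them, 24.3%, 24.1% and 24.6% of all genes tested were higher in mtAsn-1, mtAsn-2 and mtLys cells. The shares lower were 24.2%, 27.0% and 23.9%. The lists are small beside these shares, and no difference is read from them. Succinate dehydrogenase, complex II, is all nuclear: of 4 tested genes 1 was higher and 1 lower in mtAsn-1 cells, 0 and 1 in mtAsn-2 cells, and 1 and 1 in mtLys cells. SDHA, the flavoprotein, was 0.17 ± 0.040 (adjusted p = 0.00057), -0.03 ± 0.039 (adjusted p = 0.612) and 0.17 ± 0.039 (adjusted p = 0.000558) for mtAsn-1, mtAsn-2 and mtLys, and SDHD, a membrane anchor, was -0.17 ± 0.051 (adjusted p = 0.00777), -0.25 ± 0.050 (adjusted p = 8.87e-05) and -0.17 ± 0.050 (adjusted p = 0.00466). Of 5 tested carriers and related genes, 2 were higher in mtAsn-1 cells, 3 in mtAsn-2 cells and 3 in mtLys cells, and none was lower. ETFDH, which feeds electrons from fat oxidation to ubiquinone, was 0.39 ± 0.065 (adjusted p = 1.05e-05), 0.25 ± 0.063 (adjusted p = 0.00161) and 0.30 ± 0.063 (adjusted p = 0.000248), and CYCS, cytochrome c, passed in mtAsn-2 cells (0.26 ± 0.066, adjusted p = 0.00313).

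Among 18 assembly factors of complex I, 7 were higher and 2 lower in mtAsn-1 cells. In mtAsn-2 cells 5 were higher and 2 lower, and in mtLys cells 9 and 4. Of all genes tested, 48.5%, 51.1% and 48.5% passed with mtAsn-1, mtAsn-2 and mtLys. The median log2 fold change of the 18 was 0.13, 0.07 and 0.11 in that order. NDUFAF3, an early assembly factor, rose more than any subunit, to 2-fold or near it, at 1.13 ± 0.057 (adjusted p = 5.23e-15) in mtAsn-1 cells, 0.98 ± 0.056 (adjusted p = 2e-14) in mtAsn-2 cells and 0.94 ± 0.056 (adjusted p = 1.01e-13) in mtLys cells. NDUFAF7, a methyltransferase needed for complex I assembly, fell with each, at -0.48 ± 0.081 (adjusted p = 1.55e-05), -0.29 ± 0.074 (adjusted p = 0.00155) and -0.44 ± 0.076 (adjusted p = 2.15e-05). Of 9 complex III factors, 1 was higher and 2 lower in mtAsn-1 cells, 2 and 0 in mtAsn-2 cells, and 1 and 1 in mtLys cells, and TTC19 was 0.44, 0.37 and 0.49 (adjusted p at most 8.36e-07). Of 25 complex IV factors, 7 were higher and 9 lower in mtAsn-1 cells, 9 and 7 in mtAsn-2 cells, and 8 and 9 in mtLys cells. The median log2 fold change of the 25 was -0.08, 0.02 and -0.06 in that order. COX16, which helps deliver copper to complex IV, was -1.46 ± 0.11 (adjusted p = 3.18e-12) in mtAsn-2 cells, -0.12 ± 0.098 (adjusted p = 0.317) in mtAsn-1 cells and -0.34 ± 0.094 (adjusted p = 0.00394) in mtLys cells. Of 5 complex V factors, none was higher, and ATPAF1 and TMEM70 were the 2 lower with each LNA: ATPAF1, a chaperone of the beta subunit, was -0.21 ± 0.057 (adjusted p = 0.00384), -0.35 ± 0.055 (adjusted p = 4.04e-06) and -0.15 ± 0.055 (adjusted p = 0.0232), and TMEM70 -0.32 ± 0.068 (adjusted p = 0.000342), -0.25 ± 0.064 (adjusted p = 0.00158) and -0.34 ± 0.065 (adjusted p = 9.02e-05).

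Of 11 regulators of respiratory gene transcription, 2 were higher and 4 lower in mtAsn-1 cells. In mtAsn-2 cells 1 was higher and 4 lower, and in mtLys cells 1 and 4. The shares of all genes that passed were 48.5%, 51.1% and 48.5% with mtAsn-1, mtAsn-2 and mtLys. YY1 was -0.24 ± 0.040 (adjusted p = 1.66e-05), -0.24 ± 0.039 (adjusted p = 8.02e-06) and -0.25 ± 0.039 (adjusted p = 5.49e-06), and NRF1 -0.10 ± 0.059 (adjusted p = 0.188), -0.16 ± 0.056 (adjusted p = 0.0165) and -0.14 ± 0.057 (adjusted p = 0.0414). GABPA, which binds the ETS core, was -0.34 ± 0.077 (adjusted p = 0.000532) in mtAsn-2 cells, -0.15 ± 0.080 (adjusted p = 0.14) in mtAsn-1 cells and -0.17 ± 0.076 (adjusted p = 0.0646) in mtLys cells, and its exons overlap those of ATP5PF on the opposite strand. Of 13 genes for transcription and replication of mitochondrial DNA, 3 were higher and 5 lower in mtAsn-1 cells, 5 and 2 in mtAsn-2 cells, and 3 and 5 in mtLys cells. TWNK, the replicative helicase, was -0.19 ± 0.062 (adjusted p = 0.0148) in mtAsn-1 cells, 0.55 ± 0.058 (adjusted p = 5.43e-09) in mtAsn-2 cells and -0.18 ± 0.060 (adjusted p = 0.0138) in mtLys cells, and TFAM, which packages mitochondrial DNA, was -0.25 ± 0.059 (adjusted p = 0.000939), 0.01 ± 0.057 (adjusted p = 0.87) and -0.27 ± 0.058 (adjusted p = 0.000413).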

How the data were processed

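The authors deposited raw gene counts, with no normalisation, in 1 column per library. Gene length, also deposited, is in bases of merged exons. The submitters' processing notes name FastQC, STAR 2.6.0a, featureCounts, DESeq2 and the build hg38 without roles; libraries were made with the TruSeq RNA Library Kit v2 per the labels' protocols. Strandedness and the treatment of reads with several matches are, in the sources used here, not given. Of 52897 lines, 38 broken ones (12 genes) were left out, and 52859 genes were used.

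Groups came from the labels. After filterByExpr (count 10, total 15) and TMM scaling, all 12 libraries entered 1 robust quasi-likelihood fit of edgeR 4.0.16 in R 4.3.3, with F tests for 6 comparisons and Benjamini-Hochberg adjustment over the 16051 genes tested. The common biological coefficient of variation was 0.0421. A standard error (SE) here is the size of a log2 fold change divided by the root of its F statistic. CPM values use the TMM factors, and RPKM divides them by exon length. SD is over 3 libraries. The test was checked on simulated data for mtAsn-1 against the control LNA. It recovered 29 of 49 genes changed 1.25-fold (59.2%) and 45 of 48 changed 4-fold (93.8%). Of 165 calls in that check, 9 were false. A member that did not pass may therefore still have changed by a small amount. Promoters are RefSeq windows. No library of a group was a copy of another. The limit from 3 counts covers counting error only.

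The members and lists were chosen with earlier results of these data known. Genes were named by a rule: up to 2 higher and 2 lower per complex and LNA by smallest adjusted p, core subunits, isoform sets, and the 3 smallest adjusted p between LNAs; the other named members were chosen after their values were seen. Other settings were DESeq2 1.42.0, RLE scaling, scaling without the members, the filter dropped or made stricter (1 CPM throughout a group, mean log2 CPM 2), replicate number as a block, a fit of only the groups compared, each library left out, and, chosen after seeing the data, libraries thinned to the smallest total. Plots were made with Python 3.11.15 and matplotlib 3.10.9. Values of 1 subunit gene are not reported here, though counts over the members include it.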

Additional observations from a re-analysis of the deposited data

Results flagged for a closer look

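Both mtAsn-1 and mtAsn-2 are aimed at the asparagine tRNA, and 5 subunit genes differed between them by at least 0.3 in log2 fold change in the direct test, a size chosen after the values were seen. The log2 fold changes of mtAsn-1 against mtAsn-2 were 0.66 for NDUFB6, 0.56 for NDUFB1, 0.40 for NDUFA13, 0.36 for NDUFS4 and 0.35 for ATP5ME. Each was called by edgeR. The share of all genes that differ by this size was not computed. In this comparison 46.5% of all genes passed, and their median change without its sign was 0.21, beside 0.08 for the members. The 5 genes therefore describe the list and set it apart from no other genes. NDUFS4 differs from the other four in that its mtAsn-2 level overlapped the control libraries.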

How the results depend on the processing

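Leaving out 1 library moved the number of subunit genes called within 21 to 29 for mtAsn-1, 26 to 32 for mtAsn-2 and 18 to 25 for mtLys against the control LNA, and within 20 to 24 for mtAsn-1 against mtAsn-2, 0 to 2 for mtAsn-1 against mtLys and 22 to 27 for mtAsn-2 against mtLys. Thinning left 1 call for mtAsn-1 against mtLys. The median change of that comparison was 0.02, was 0.016 with no filter, and ran between -0.0030 and 0.0349 without 1 library, so its sign is not settled. Nor is that of mtAsn-2 against the control LNA, at -0.0448 to 0.0060 without 1 library. The range was 0.0026 to 0.0481 for mtAsn-1 and 0.0026 to 0.0324 for mtLys against the control LNA, 0.0225 to 0.0549 for mtAsn-1 against mtAsn-2, and -0.0336 to -0.0136 for mtAsn-2 against mtLys. Of 120 counts under other settings, 115 stayed within 1.5 times. Calls kept in every setting numbered 15 of 27, 22 of 31 and 15 of 25 against the control LNA for mtAsn-1, mtAsn-2 and mtLys, and 15 of 23, 0 of 2 and 20 of 26 between LNAs. With the replicate number as a block the counts were 23, 29 and 22 for mtAsn-1, mtAsn-2 and mtLys, and 21, 2 and 26 between LNAs; same-numbered libraries did not deviate together (r from -0.099 to 0.042 over 18 pairs). Across the edgeR settings the median of all genes stayed within 0.013 of 0. Depth limits ATP5MGL and COX6B2, which stayed under 1 CPM.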
